A study of Mus musculus with 3 samples.

Results

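Chromatin accessibility was examined around 7 genes of fibroblast growth factor (FGF) and ERK signalling in mouse embryonic stem cells: the receptor genes Fgfr1 and Fgfr2, the feedback inhibitor genes Spry2, Spry4 and Dusp6, and the transcription factor genes Etv4 and Etv5. Members were the ATAC-seq peaks with a midpoint inside or within 50 kb of the body of one of these genes (RefSeq, GRCm38.p6). The rule took 85 of 88898 peaks of the Halo-Sox2 library, 85 of 83995 peaks of the Halo-Sox2a library and 63 of 72638 control peaks. Merging overlapping peaks of the 3 lists gave 113 regions at the 7 genes, of 130664 in all.

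ATAC-seq marks open DNA by the insertion of adapters with the Tn5 transposase. Each group was 1 library of a line derived from the embryonic stem cell line CGR8. SES4.1 expressed Halo-Sox2 (300 ng/mL doxycycline for 20 h), SES5.1 expressed Halo-Sox2a (70 ng/mL for 20 h), and SES11 was the control, for which the labels name no transgene and no doxycycline dose. Sox2 is a pluripotency factor of the SOX family, the Halo tag allows staining with a dye (50 nM here), and cells of both transgene lines were sorted through 1 shared window of dye intensity. The labels name Halo-Sox2a without describing it, and do not say whether each line is a single clone or whether control cells were stained or sorted. All 3 lines grew with serum, LIF, 3 µM of the GSK3 inhibitor CHIR99021 and 0.8 µM of PD184352, an inhibitor of MEK, so the cascade that ends in ERK was under an inhibitor in the control too. With 1 library per group no difference could be set against replicate error, and no p-value is given.

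In the FGF pathway a secreted FGF binds a receptor tyrosine kinase such as FGFR1 or FGFR2, which passes the signal through RAS, RAF and MEK to the kinase ERK. ERK activity turns on genes that act back on the pathway, among them the Sprouty genes and Dusp6, whose product removes phosphate from ERK, and the genes Etv4 and Etv5, which encode ETS-family transcription factors. In mouse embryonic stem cells FGF4 and ERK signalling is known for moving cells away from the naive state, and MEK inhibitors are used to hold cells in it.

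Promoter sequences were in the RefSeq table for Dusp6, Spry2, Etv5 and Fgfr2, and are shown because the peaks covered them to different extents. Each run is 300 bases of GRCm38.p6, from 250 bases before the start site to 50 after it, written 5′ to 3′ along the gene. The Dusp6 window is chr10:99262981-99263280 on the plus strand, the Spry2 window chr14:105896770-105897069 on the minus strand, the Fgfr2 window chr7:130266759-130267058 on the minus strand, and the Etv5 windows chr16:22439521-22439820 and chr16:22438319-22438618 on the minus strand. Capitals mark matches to the motifs searched.
Dusp6: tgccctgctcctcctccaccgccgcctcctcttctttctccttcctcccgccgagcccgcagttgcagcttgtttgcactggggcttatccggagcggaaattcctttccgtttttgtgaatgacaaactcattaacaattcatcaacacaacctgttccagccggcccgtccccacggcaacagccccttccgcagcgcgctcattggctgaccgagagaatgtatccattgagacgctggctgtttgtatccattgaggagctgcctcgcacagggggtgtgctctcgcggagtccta
Spry2: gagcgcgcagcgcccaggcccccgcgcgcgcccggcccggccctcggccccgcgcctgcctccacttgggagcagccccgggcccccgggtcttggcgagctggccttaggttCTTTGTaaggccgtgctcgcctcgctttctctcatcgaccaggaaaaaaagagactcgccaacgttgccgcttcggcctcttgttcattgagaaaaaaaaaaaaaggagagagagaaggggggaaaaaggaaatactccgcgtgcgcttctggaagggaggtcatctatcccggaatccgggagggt
Etv5, outer start: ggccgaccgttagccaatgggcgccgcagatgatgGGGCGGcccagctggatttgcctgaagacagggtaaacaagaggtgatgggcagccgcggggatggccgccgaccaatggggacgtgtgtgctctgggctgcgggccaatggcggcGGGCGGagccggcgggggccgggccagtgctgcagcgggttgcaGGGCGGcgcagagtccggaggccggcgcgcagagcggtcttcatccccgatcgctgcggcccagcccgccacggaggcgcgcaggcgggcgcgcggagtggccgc
Etv5, inner start: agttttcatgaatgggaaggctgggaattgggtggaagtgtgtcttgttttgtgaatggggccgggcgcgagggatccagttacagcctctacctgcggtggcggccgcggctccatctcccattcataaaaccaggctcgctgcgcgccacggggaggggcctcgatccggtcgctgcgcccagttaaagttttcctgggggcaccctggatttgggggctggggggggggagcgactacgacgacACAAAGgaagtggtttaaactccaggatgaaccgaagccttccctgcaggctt
Fgfr2: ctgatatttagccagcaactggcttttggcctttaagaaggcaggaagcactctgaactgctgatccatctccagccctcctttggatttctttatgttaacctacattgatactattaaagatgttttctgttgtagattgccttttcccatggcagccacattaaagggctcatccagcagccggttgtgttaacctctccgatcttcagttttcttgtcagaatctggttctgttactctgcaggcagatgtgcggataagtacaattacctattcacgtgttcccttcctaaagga

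All 300 bases of the Dusp6 window and of the outer Etv5 window lay inside a peak in each of the 3 libraries. At the inner Etv5 start, 169 bases lay inside a peak in the Halo-Sox2 and Halo-Sox2a libraries and 157 in the control. At Spry2 the Halo-Sox2 peak covered 85 bases of the window and the peaks of the other libraries covered 0 bases, since they began further upstream. No base of the Fgfr2 window lay inside a peak in any of the 3 libraries. Guanine and cytosine made up 74.0% of the outer Etv5 window, 62.7% of the Spry2 window, 60.0% of the inner Etv5 window, 57.3% of the Dusp6 window and 43.7% of the Fgfr2 window, against a median of 52.7% over 32851 promoters in the table.

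The windows were searched on both strands for SOX (CATTGT or CTTTGT), OCT (ATGCAAAT), ETS (CCGGAAG), AP-1 (TGANTCA), CRE (TGACGTCA), the GC box (GGGCGG) and the composite SOX-OCT motif. A SOX match was present in the Spry2 window (CTTTGT, bases 114 to 119) and in the inner Etv5 window (ACAAAG, the reverse complement, bases 248 to 253), where bases are counted from the 5′ end of the run. Both SOX matches lay outside the bases covered by a peak. The outer Etv5 window held 3 GC boxes, and the Dusp6 and Fgfr2 windows held no match to any of the 7 motifs. SOX matches were found in 28.6% of all promoters of this length, GC boxes in 35.7%, ETS matches in 8.86%, AP-1 in 7.81%, CRE in 1.79% and OCT in 1.74%, so the matches seen were of common kinds and are descriptions of sequence only.

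A peak's score is the authors' own, and its scale is not given, so peaks are described by rank within their list (rank 1 is the highest score) and by percentile, the share of the list ranked below. As a check of the cell type, 8 of 10 embryonic stem cell markers had a peak that reached to 1 kb or less from an end of the gene in the Halo-Sox2 library and 9 of 10 in each of the others. Esrrb had none in any library, and Nanog none in the Halo-Sox2 library. Marker genes of other lineages often had one too (6 of 6 neural and 6 of 6 mesoderm genes in every library, 3 of 6 fibroblast genes in every library, 5, 5 and 4 of 6 trophoblast genes and 4, 4 and 3 of 6 endoderm genes in the order Halo-Sox2, Halo-Sox2a, control), as did 65.2% to 66.0% of all protein-coding genes. Such a peak therefore does not tell these cell types apart. The highest peak at an end of Sox2 itself stood at percentile 81.7 in the Halo-Sox2 library, 99.998 in the Halo-Sox2a library and 64.6 in the control. Whether reads from the transgenes were placed at Sox2 was not tested. These values are therefore not read as a change at the cells' own Sox2 gene. The depth of the libraries is unknown, and a region without a called peak may still hold signal under the authors' threshold.

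The 7 neighbourhoods differed in how many regions they held. Etv4 had the fewest, 6.92 regions per 100 kb of its window, and Fgfr1 the most, 15.3. Fgfr2 had 8.81, Dusp6 12.5, Spry4 13.03, Etv5 13.3 and Spry2 13.3. The median over 21887 protein-coding genes was 7.58 (quartiles 4.22 and 10.9), so 5 of the 7 windows lay above the upper quartile. In the map of peaks by distance, every gene carried peaks of all 3 libraries. The highest peak lay at the start site of Dusp6 and Etv5, inside the gene at Fgfr2 and in flanking sequence at Etv4, in all 3 libraries.

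**Figure D1:**
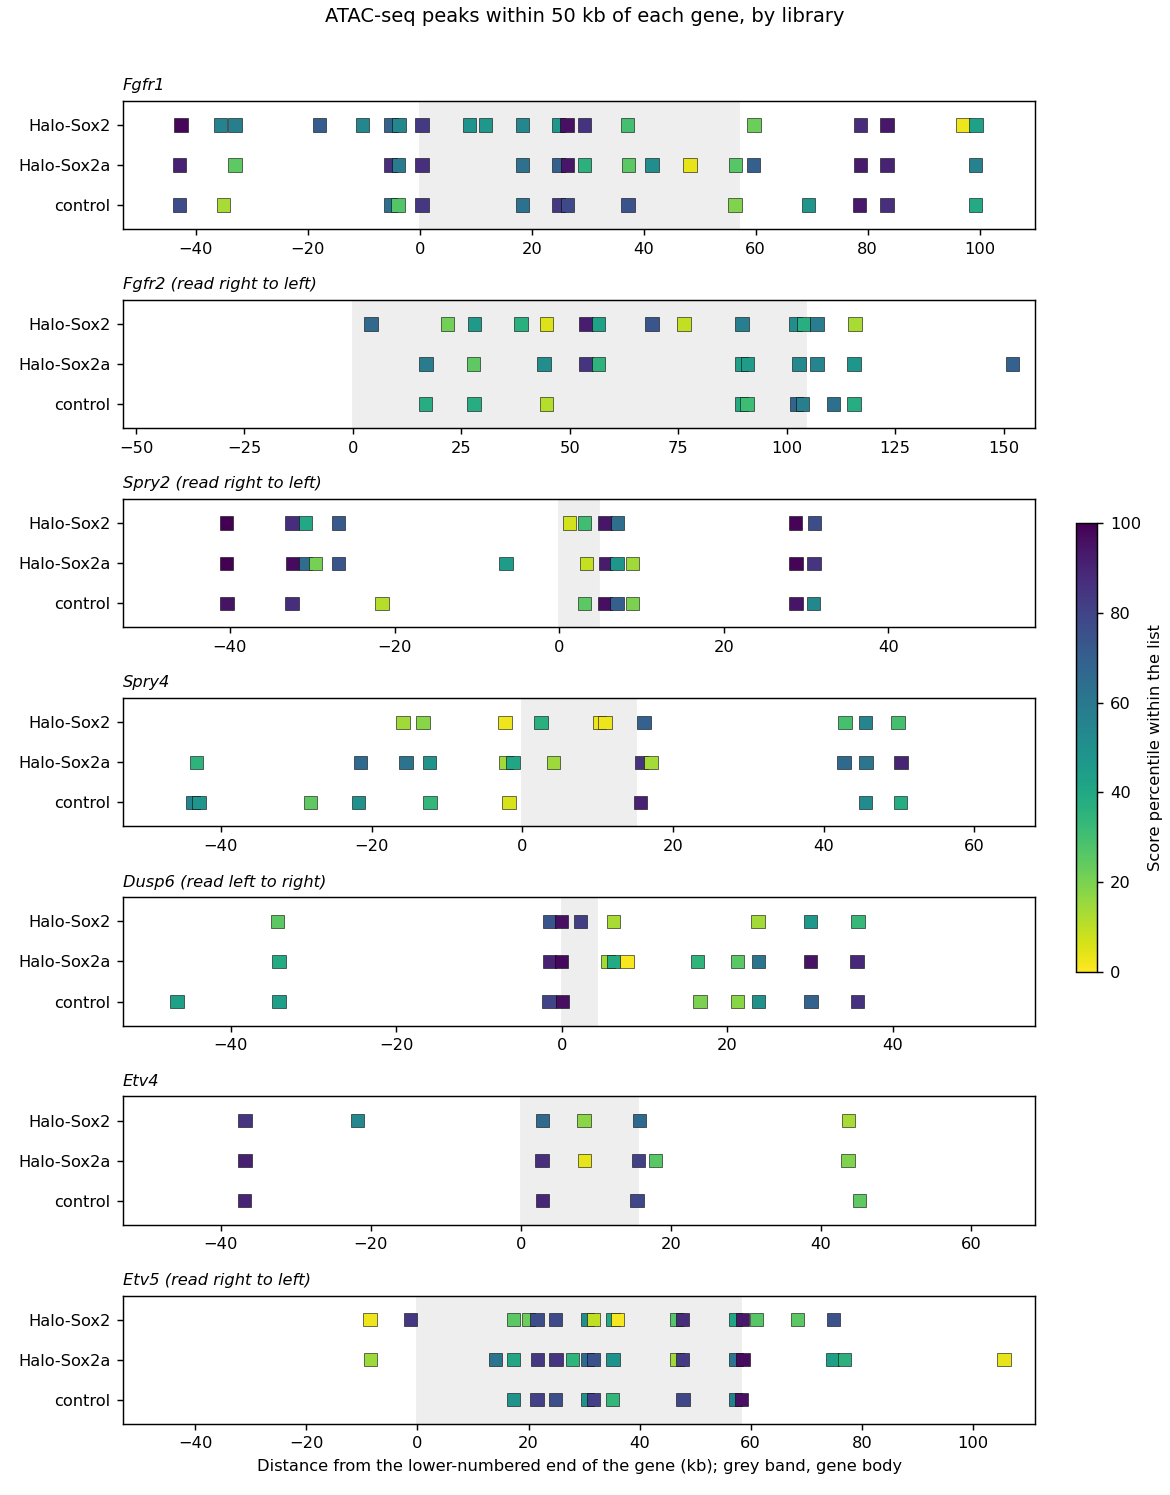
Peaks at the 7 genes. The x axis is the distance of each peak midpoint from the lower-numbered end of the gene in kb, each row is a library, the grey band is the gene body and the colour is the score percentile within the list. Dusp6 and Etv5 have dark squares at the start site in all 3 rows, and the Fgfr2 body has its darkest squares in the Halo-Sox2 and Halo-Sox2a rows only.

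Among the receptors, Fgfr1 (chromosome 8, 25518759 to 25575718) encodes an FGF receptor that mouse embryonic stem cells are known to express. The region over its lower-numbered end (25518587 to 25519754, 1168 bp) was held by all 3 lists, at percentile 83.5 in the Halo-Sox2 library, 86.7 in the Halo-Sox2a library and 84.2 in the control. These percentiles lay within a few points of each other. The highest region of the Halo-Sox2 list, 42.8 kb below that end (25475397 to 25476592), stood at percentile 98.2 there, at 90.8 in the Halo-Sox2a library and at 77.1 in the control. The highest region of the Halo-Sox2a list lay inside the gene (25544694 to 25545491), at percentile 95.9 in the Halo-Sox2 library, 94.3 in the Halo-Sox2a library and 77.8 in the control. Both of these regions stood lowest in the control. Each was picked as the highest of a transgene list, so no conclusion is drawn from that order.

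The control's highest region near Fgfr1 (25596948 to 25597961) was nearest to the neighbouring gene Letm2 and stood at percentile 87.2 in the Halo-Sox2 library, 92.7 in the Halo-Sox2a library and 93.6 in the control. A region inside Fgfr1 (25547870 to 25548475, 606 bp) was absent from the control list and stood at percentile 85.4 in the Halo-Sox2 library and 36.0 in the Halo-Sox2a library. Another region inside the gene (25555625 to 25556231) went the other way, at percentile 74.6 in the control, 29.9 in the Halo-Sox2 library and 25.2 in the Halo-Sox2a library. Of the 24 Fgfr1 regions, 11 were held by all 3 lists, 5 by Halo-Sox2 only, 3 by both proteins without the control, 2 by Halo-Sox2a only and 1 by the control only. The remaining pair of regions joined the control with 1 of the proteins each.

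Fgfr2 (chromosome 7, 130162451 to 130266808) encodes the receptor known for its role in the trophoblast and primitive endoderm. It had the lowest share of regions held by all 3 lists, 4 of 18, with 5 of Halo-Sox2 only, 3 of both proteins, 2 of Halo-Sox2a only, 2 of Halo-Sox2a and the control, 1 of Halo-Sox2 and the control and 1 of the control only. The region nearest to its start site (130263881 to 130266737, 2857 bp) lay inside the gene and was of middling rank, at percentile 51.4 in the Halo-Sox2 library, 52.9 in the Halo-Sox2a library and 68.1 in the control. It was a single peak in the Halo-Sox2a list, and 2 separate peaks in each of the other lists. In the control list this was the highest region of the locus, and 0 of 9 control peaks at Fgfr2 reached percentile 75, which allows up to 33.3% and so includes the 25.2% of the whole control list.

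The highest Fgfr2 region of both transgene lists had no control peak. It lay in the gene body (130215882 to 130216526, 645 bp), 50.6 kb from the start-site end, with a score of 617 and rank 7144 (percentile 91.96) in the Halo-Sox2 library and a score of 302 and rank 12700 (percentile 84.9) in the Halo-Sox2a library. It was the 1 region at the 7 genes that lacked a control peak and stood above percentile 75 in both transgene lists. Over the whole Halo-Sox2a list, 4.91% of the peaks at or above percentile 75 overlapped no control peak, and at the 7 genes this was 1 of 26 (3.85%, Wilson 95% interval 0.682 to 18.9%). In the Halo-Sox2 list the figure was 34.8% of all such peaks and 4 of 20 (20.0%, 8.07 to 41.6%) at the 7 genes.

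Of the feedback inhibitors, Spry2 (chromosome 14, 105891947 to 105896819) encodes a Sprouty protein that dampens signalling from receptor tyrosine kinases. Its start-site region (105896985 to 105898004) was the highest of the locus in the control, at percentile 96.2, and stood at 94.4 in the Halo-Sox2 library and 92.6 in the Halo-Sox2a library. The peak within it ran from 105896985 in the Halo-Sox2 library, from 105897122 in the Halo-Sox2a library and from 105897117 in the control. The highest region of both transgene lists lay beyond the gene's other end, 40.4 kb away (105851106 to 105851968, 863 bp). It ranked 121 in the Halo-Sox2 library (score 1522, percentile 99.9), 155 in the Halo-Sox2a library (score 1085, percentile 99.8) and 3483 in the control (score 375, percentile 95.2).

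A region 23.9 kb upstream of the Spry2 start (105920225 to 105921197) was likewise high in every library, at percentile 99.2 in the Halo-Sox2 library, 99.0 in the Halo-Sox2a library and 94.5 in the control. Its neighbour (105922502 to 105923280) stood at percentile 76.6, 84.8 and 53.3 in the same order. Of the 14 Spry2 regions, 7 were held by all 3 lists, 2 by both proteins, 2 by Halo-Sox2a only and 1 each by Halo-Sox2 only, the control only, and Halo-Sox2a with the control. Spry2 had the lowest share of Halo-Sox2 peaks without a Halo-Sox2a peak, 1 of 10 (10.0%, 1.79 to 40.4%), an interval that includes the 38.7% of the whole list.

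Dusp6 (chromosome 10, 99263231 to 99267489) encodes the phosphatase MKP3, which acts on ERK. The region over its start site (99262732 to 99263711) was the highest of the locus in all 3 libraries, with rank 3629 and percentile 95.9 in the Halo-Sox2 library, rank 1902 and percentile 97.7 in the Halo-Sox2a library, and rank 2577 and percentile 96.5 in the control. Just upstream, a second region (99261208 to 99262286) stood at percentile 73.6, 90.4 and 80.0 in the same order. A narrow region inside the gene (99265388 to 99265674, 287 bp) was held by the Halo-Sox2 list only, at percentile 82.1 and with a score of 405. It was the only region held by Halo-Sox2 alone at Dusp6, and 1 of 2 such regions at the 7 genes above percentile 75.

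Downstream of Dusp6, 2 regions of all 3 lists stood far apart between the libraries. The region 25.8 kb past the gene (99293066 to 99293592) was at percentile 46.7 in the Halo-Sox2 library, 94.96 in the Halo-Sox2a library and 68.7 in the control. The region 31.5 kb past it (99298475 to 99299532) was at percentile 33.0, 88.3 and 85.5 in the same order. In both, the Halo-Sox2 library was the lowest. Of the 13 Dusp6 regions, 6 were held by all 3 lists, 2 by Halo-Sox2a only, 2 by Halo-Sox2a and the control, and 1 each by Halo-Sox2 only, both proteins, and the control only.

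Spry4 (chromosome 18, 38586247 to 38601347) encodes another Sprouty protein. The region nearest to an end of the gene (38601157 to 38603560, 2404 bp) stood at percentile 69.4 in the Halo-Sox2 library, 85.9 in the Halo-Sox2a library and 90.9 in the control, and also lay inside the neighbouring gene Arhgap26. The Halo-Sox2 library was the lowest here, and 0 of its 10 peaks at Spry4 reached percentile 75, which allows up to 30.0% and so includes the 25.1% of its whole list. The highest Halo-Sox2a region (38635794 to 38637235, inside Arhgap26) stood at percentile 90.0 there, 30.1 in the Halo-Sox2 library and 38.4 in the control. Among the 15 Spry4 regions, 4 were held by all 3 lists, 4 by Halo-Sox2 only, 3 by Halo-Sox2a and the control, 2 by both proteins, and 1 each by Halo-Sox2a only and the control only. At Spry4, 6 of 9 control peaks (66.7%, 35.4 to 87.9%) had no Halo-Sox2 counterpart, an interval that includes the 37.5% over the whole control list.

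Among the ETS factors, Etv5 (chromosome 16, 22381313 to 22439570) had its highest region over the outer start site in all 3 libraries (22439109 to 22440447), at percentile 93.4 in the Halo-Sox2 library, 97.02 in the Halo-Sox2a library and 95.8 in the control. The inner start site had a separate region (22438450 to 22438908), at percentile 40.3, 61.2 and 56.3 in the same order. All 9 control peaks at Etv5 overlapped a peak in each of the other lists. A count of 0 of 9 allows a share of up to 33.3%, which does not reach the 37.5% of control peaks without a Halo-Sox2 peak over the whole list but includes the 22.0% without a Halo-Sox2a peak. The whole list is an unlike background here, since the 9 peaks had a median percentile of 76.0 and a lowest of 34.1. Over the whole list, 6.07% of control peaks at or above percentile 75 had no Halo-Sox2 peak. Neighbouring peaks are also not independent, so no conclusion is drawn from this count.

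Regions without a control peak made up 12 of the 21 at Etv5 (57.1%, 36.5 to 75.5%), an interval that includes the 45.5% of all regions. Of the 12, 5 were of Halo-Sox2 only, 4 of Halo-Sox2a only and 3 of both. The highest of them (22379841 to 22380406, 566 bp) lay 1.19 kb past the gene's downstream end and was held by Halo-Sox2 only, with a score of 437, rank 14104 and percentile 84.1. Inside the gene, a region of all 3 lists (22412613 to 22413449) stood at percentile 9.55 in the Halo-Sox2 library, 75.1 in the Halo-Sox2a library and 81.7 in the control. It had the largest gap between libraries of the 9 regions of all 3 lists at Etv5.

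Etv4 (chromosome 11, 101769747 to 101785310) had the fewest regions, 8, of which 3 were held by all 3 lists, 2 by both proteins and 1 each by Halo-Sox2, Halo-Sox2a and the control alone. The region over its higher-numbered end (101784379 to 101786374, 1996 bp) stood at percentile 66.3 in the Halo-Sox2 library, 80.5 in the Halo-Sox2a library and 78.6 in the control. The highest region in every library (101732557 to 101733305) was nearest to the neighbouring gene Dhx8, at percentile 85.0, 91.4 and 90.1 in the same order. Of its 5 regions missing from a list, the highest stood at percentile 53.1.

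Summed over the 7 genes, regions fell into classes in shares near those of the genome. All 3 lists held 44 of the 113 regions (38.9%, Wilson 95% interval 30.5 to 48.2%), against 32.1% of all regions and 34.8% of the regions within 50 kb of any protein-coding gene. Halo-Sox2 only held 22 (19.5%, 13.2 to 27.7%), against 24.3% of all regions, and Halo-Sox2a only held 14 (12.4%, 7.53 to 19.7%), against 12.2%. That order did not hold in lists of equal size (15 of each). At or above percentile 50 it did not hold either (12 of Halo-Sox2 only and 13 of Halo-Sox2a only). Shares over all regions at these settings are not given here. Regions of both proteins without the control numbered 16 (14.2%, 8.91 to 21.8%), against 8.95% of all regions and 9.32% near protein-coding genes. The lower end of the interval lies just under the first of these values. The control only held 6 (5.31%, 2.46 to 11.1%), against 10.2%, Halo-Sox2a and the control held 9 (7.96%, 4.25 to 14.4%), against 10.3%, and Halo-Sox2 and the control held 2 (1.77%, 0.487 to 6.22%), against 1.90%.

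**Figure D2:**
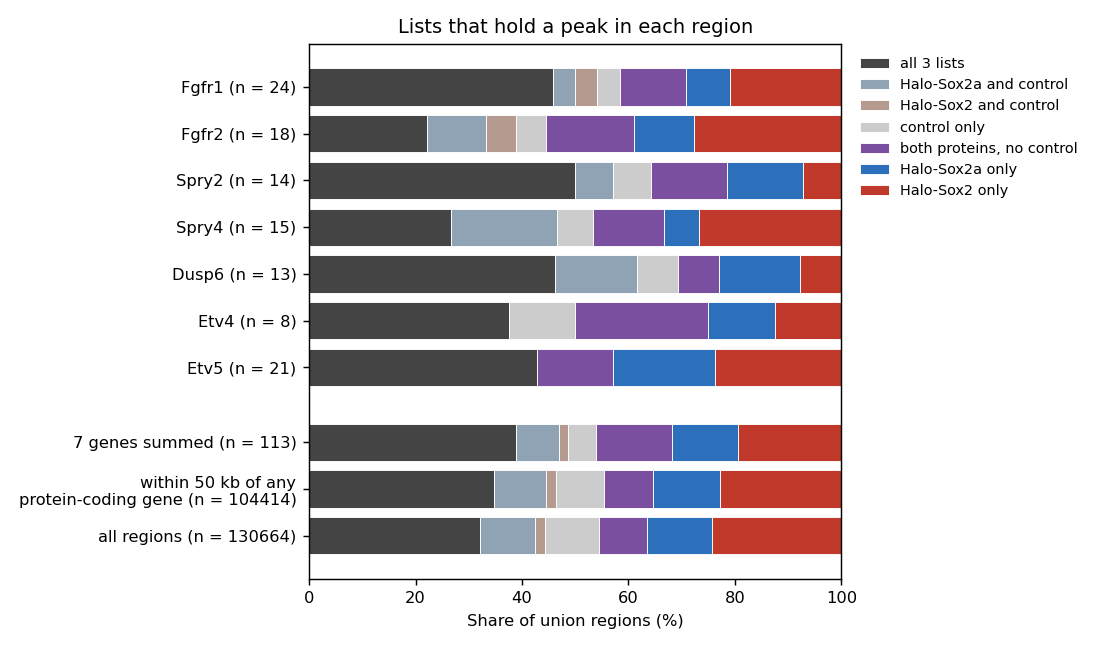
Share of union regions by the lists that hold a peak there. The x axis is the share in percent, each bar is a gene, the sum of the 7 genes (113 regions), the 104414 regions within 50 kb of any protein-coding gene or all 130664 regions, and the colours are the 7 classes. Spry2 has the largest black segment (7 of 14 regions in all 3 lists), Fgfr2 the smallest (4 of 18), and Etv5 has no segment of the control only.

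With each list cut to peaks at or above percentile 25, regions of both proteins without the control numbered 8 in place of 16. At or above percentile 50 they numbered 5. At these cuts regions of all 3 lists numbered 38 and 24 (44 uncut). Those of Halo-Sox2 only numbered 16 and 12 (22 uncut), and of Halo-Sox2a only 15 and 13 (14 uncut). Shares over all regions at these cuts are not given here, so the fall is not read as particular to the 7 genes. Among regions of both proteins without the control, the 3 at Etv5 stood between percentiles 2.61 and 74.8 among Halo-Sox2 peaks. The 2 at Spry2 stood at 40.2 and 72.3. Regions of any class without the control made up 52 of 113 (46.0%, 37.1 to 55.2%), against 45.5% of all regions, and ranged from 4 of 13 (30.8%) at Dusp6 to 12 of 21 (57.1%) at Etv5. By role, they were 20 of 42 at the receptors, 16 of 42 at the feedback inhibitors and 16 of 29 at the ETS factors.

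By position, 7 regions had their midpoint at most 1 kb from an end of their gene: 2 each at Fgfr1 and Etv5 and 1 each at Spry2, Dusp6 and Etv4. All 7 were held by the control, and 6 of them by all 3 lists. A count of 0 of 7 regions without the control allows a share of up to 42.9%, and over all regions at the ends of protein-coding genes the share was 14.7%. Regions of Halo-Sox2 only, 6.17% of all regions at gene ends, and of the control only, 3.79%, numbered 0 at the ends of the 7 genes. By a wider rule chosen after seeing the data, any base of the region within 1 kb of an end, there were 12 regions, and 1 of them (8.33%) had no control peak, the Etv5 region of Halo-Sox2 only. Over all regions that rule gave 15.9%. Within the gene bodies, beyond 1 kb from the ends, 25 of 44 regions (56.8%, 42.2 to 70.3%) had no control peak, against 52.7% of all regions inside protein-coding genes, and outside the genes 27 of 62 (43.5%, 31.9 to 55.9%), against 47.0% of all regions outside protein-coding genes. The 62 include regions inside or at an end of a neighbouring gene, and the larger set does not. The larger set also includes regions more than 50 kb from any protein-coding gene, so the 2 sets outside genes are not alike. Within the gene bodies 14 of 44 regions (31.8%, 20.0 to 46.6%) were of Halo-Sox2 only, against 28.0%, and outside the genes 8 of 62 (12.9%, 6.69 to 23.4%), against 25.8%. The control only held 0 of 44 regions in the gene bodies, which allows up to 6.82%, against 9.30%, and 6 of 62 outside (9.68%, 4.51 to 19.5%), against 12.8%. Regions in the gene bodies come mostly from Fgfr1, Fgfr2 and Etv5, the longest of the 7 genes, and neighbouring regions are not independent.

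The first comparison took each protein against the control. Of the 85 Halo-Sox2 peaks at the 7 genes, 39 (45.9%, 35.7 to 56.4%) overlapped no control peak, against 49.3% of the whole list. Of the 85 Halo-Sox2a peaks it was 31 (36.5%, 27.0 to 47.1%), against 33.4%. Both shares were near those of their lists, and the 9.41 points between them were less than the 15.9 points over the whole lists. The same control peaks served both comparisons. By gene, the share was higher for Halo-Sox2 at Spry4 (7 of 10 peaks against 4 of 12), at Fgfr2 (8 of 14 against 5 of 11), at Fgfr1 (8 of 20 against 5 of 17) and at Etv5 (8 of 17 against 7 of 16). It was equal at Etv4 (3 of 6 each) and lower at Spry2 (3 of 10 against 4 of 12) and Dusp6 (2 of 8 against 3 of 11). At every gene the Wilson intervals of the pair overlapped.

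Of the 63 control peaks, 17 had no overlapping peak in the Halo-Sox2 library (27.0%, 17.6 to 39.0%), against 37.5% of the whole control list, and 8 had none in the Halo-Sox2a library (12.7%, 6.58 to 23.1%), against 22.0%. Of the 17, 6 were at Spry4, 3 each at Fgfr2 and Dusp6, 2 each at Fgfr1 and Spry2, 1 at Etv4 and none at Etv5. None of the 22 control peaks at or above percentile 75 was missing from either of the other lists, which allows up to 13.6%. Over the whole control list, 6.07% of such peaks had no Halo-Sox2 peak and 0.985% no Halo-Sox2a peak.

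The direct comparison of the proteins gave equal counts, with 24 of 85 Halo-Sox2 peaks (28.2%, 19.8 to 38.6%) lacking a Halo-Sox2a peak and 24 of 85 Halo-Sox2a peaks lacking a Halo-Sox2 peak. In lists of equal size the counts were 17 of 68 (25.0%, 16.2 to 36.4%) and 29 of 79 (36.7%, 26.9 to 47.7%), intervals that overlap. No whole-list share at equal size is given here. The uncut whole lists gave 38.7% and 35.4%. The interval of the full lists ends just under the first of these values and includes the second. By gene, Halo-Sox2 peaks without a Halo-Sox2a peak were most frequent at Fgfr2 (6 of 14) and Spry4 (4 of 10). Halo-Sox2a peaks without a Halo-Sox2 peak were most frequent at Spry4 (5 of 12), Fgfr2 (4 of 11) and Dusp6 (4 of 11). At or above percentile 75, 2 of 20 Halo-Sox2 peaks (10.0%, 2.79 to 30.1%) had no Halo-Sox2a peak, against 20.9% of the list, and these were the Dusp6 and Etv5 regions of Halo-Sox2 only named above. The reverse was 0 of 26, which allows up to 11.54%, against 3.65%.

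**Figure D3:**
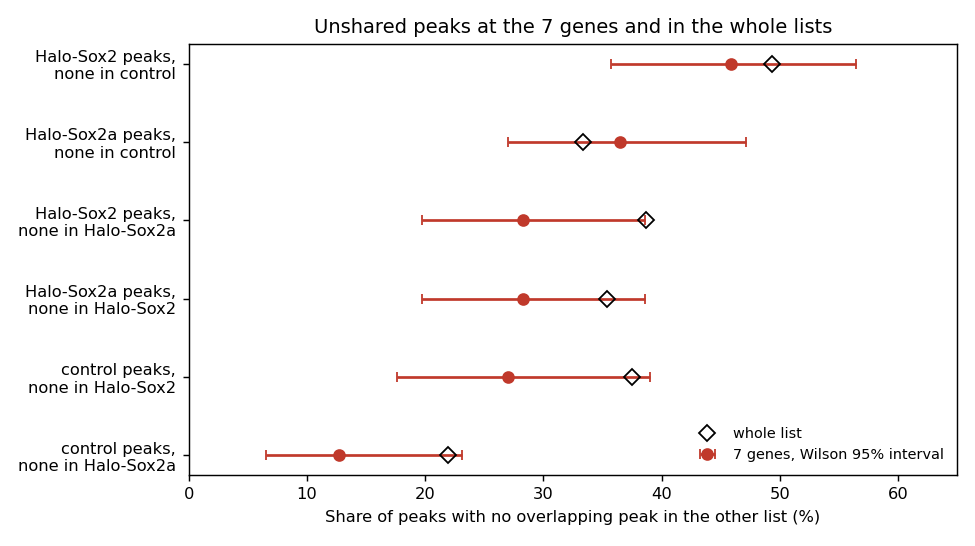
Peaks with no overlapping peak in another list. The x axis is the share in percent, each row is a list and the list it was compared with, red points are the peaks at the 7 genes with Wilson 95% intervals (counting error only) and open diamonds are the whole lists. The diamond lies inside the interval in 5 of 6 rows and just above its upper end (38.6% against 38.7%) for Halo-Sox2 peaks with none in Halo-Sox2a.

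The peaks at the 7 genes were spread over the whole range of ranks. Their median percentile was 48.3 in the Halo-Sox2 list (lowest 0.998, highest 99.9), 56.0 among Halo-Sox2a peaks (1.06 to 99.8) and 54.4 in the control (6.10 to 96.5). Peaks at or above percentile 75 numbered 20 of 85 for Halo-Sox2 (23.5%, 15.8 to 33.6%), against 25.1% of that whole list, 26 of 85 for Halo-Sox2a (30.6%, 21.8 to 41.0%), against 25.0%, and 22 of 63 for the control (34.9%, 24.3 to 47.2%), against 25.2%. The gene with the highest median was Spry2 for Halo-Sox2 (74.5) and for Halo-Sox2a (69.4), and Etv4 in the control (83.9, from 4 peaks). The lowest medians were at Spry4 for Halo-Sox2 (23.6), at Dusp6 for Halo-Sox2a (39.4) and at Fgfr2 in the control (37.5).

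Ranks from lists of different length show no change, so the 41984 regions held by all 3 lists were ranked again in each library over the same regions. A region was counted as shifted where its percentile among them differed by at least 25 points between a pair of libraries. Of the 44 such regions at the 7 genes, 5 were higher in Halo-Sox2 than in the control (11.4%, against 14.1% of all) and 6 lower (13.6%, against 13.8%). For Halo-Sox2a against the control, 4 were higher (9.09%, against 10.2%) and 3 lower (6.82%, against 9.93%). Between the proteins, 3 were higher in Halo-Sox2 (6.82%, against 10.5%) and 5 higher in Halo-Sox2a (11.4%, against 10.5%). Every one of these 6 shares was within 4 points of the share over all regions of the 3 lists.

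The shifted regions are given by gene. Of the 5 that were higher in Halo-Sox2 than in the control, 3 were at Fgfr1, 1 at Fgfr2 (130251777 to 130252458, 45.7 against 19.5) and 1 at Spry2 (105922502 to 105923280, 67.8 against 32.4). At Fgfr1, which holds 11 of the 44 regions, these were the region 42.8 kb below the gene (97.1 in the Halo-Sox2 library against 62.6 in the control on this scale), the region inside the gene that was highest in Halo-Sox2a (93.8 against 63.8) and a region 3.78 kb below the gene (25514575 to 25515390, 41.6 against 11.1). Fgfr1 also held 2 of the 6 regions that were higher in the control than in Halo-Sox2, both inside the gene (25543325 to 25543787, 73.2 against 34.6, and 25555625 to 25556231, 58.9 against 19.6). The same 2 regions were at least 25 points higher in the control than in Halo-Sox2a (46.2 and 6.49). The other 4 of the 6 were the region at the Spry4 end (84.5 against 59.1), the outer region downstream of Dusp6 (75.6 against 22.2), a region inside Etv4 (101772265 to 101773028, 81.5 against 55.4) and the region inside Etv5 (69.7 against 5.05).

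Of the 5 that were higher in Halo-Sox2a than in Halo-Sox2, 3 were at Dusp6, all downstream of the gene, with 35.01 against 7.84, 90.0 against 34.6 and 77.2 against 22.2. The others were the Spry4 region inside Arhgap26 (80.4 against 19.7) and the region inside Etv5 (54.2 against 5.05). Of the 3 that were higher in Halo-Sox2 than in Halo-Sox2a, 2 were at Fgfr2 (130190055 to 130190964, 34.1 against 6.24, and 130251777 to 130252458, 45.7 against 17.4). The other was at Spry2 (105898670 to 105899365, 52.7 against 20.5). That Spry2 region was also higher in the control (52.7) than in Halo-Sox2a. The 4 that were higher in Halo-Sox2a than in the control were 1 each at Fgfr1, Spry2, Spry4 and Dusp6.

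The spans over the libraries depended on how a gene end was drawn. The 6 regions of all 3 lists whose midpoint lay at most 1 kb from a gene end spanned 1.71 to 9.53 points between their lowest and highest library, with a median of 5.40. The 38 regions elsewhere spanned 1.04 to 64.6 points, with a median of 18.1, and 17 of them (44.7%) spanned at least 25 points. Over all regions of the 3 lists the median span was 14.1 points at the ends of protein-coding genes and 24.6 elsewhere. Spans of at least 25 points made up 21.3% of these regions at gene ends and 49.1% elsewhere. Counting any region with a base within 1 kb of an end, a rule chosen after seeing the data, gave 10 regions at the 7 genes with spans of 1.71 to 25.4 points and a median of 8.81, against 18.1 for the other 34. The 4 regions added were the one over the Spry4 end (59.1 in the Halo-Sox2 library, 72.8 in the Halo-Sox2a library and 84.5 in the control), the one beside the Fgfr2 start (39.2, 25.8 and 50.1), one at the other end of Spry4 (1.17, 15.3 and 1.52) and the one just upstream of Dusp6 (64.1, 81.1 and 67.1). On this scale the Dusp6 start site stood at 93.8 in the Halo-Sox2 library, 95.5 in the Halo-Sox2a library and 93.9 in the control, the Spry2 start site at 91.5, 85.4 and 93.4, and the outer Etv5 start site at 90.1, 94.1 and 92.8.

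**Figure D4:**
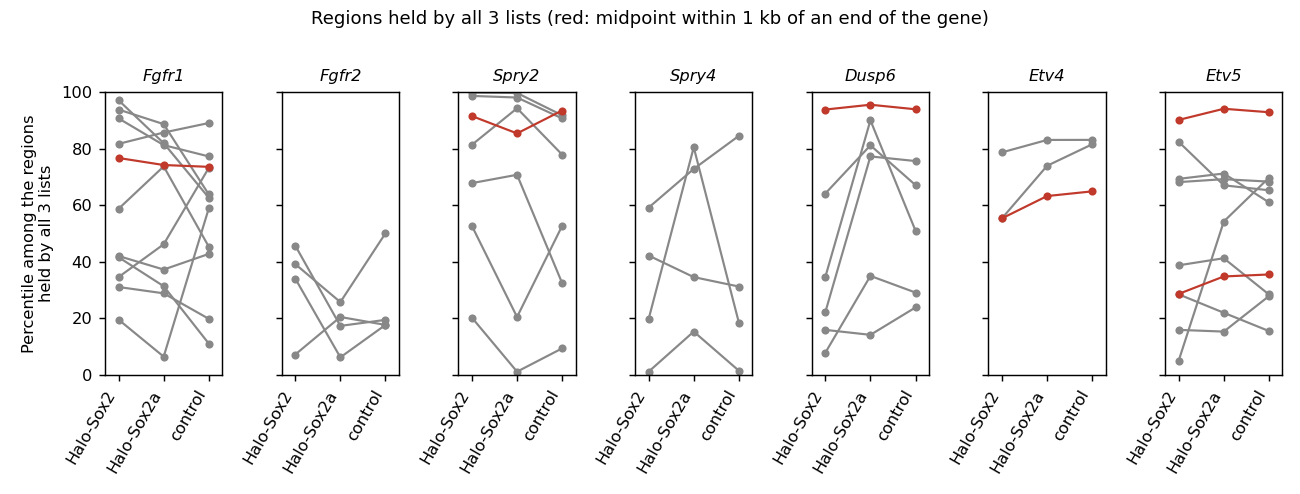
Percentile of the 44 regions at the 7 genes among the 41984 regions held by all 3 lists. The y axis is that percentile in each library, each line is 1 region, and red lines are the 6 regions whose midpoint lies at most 1 kb from a gene end. Red lines span 1.71 to 9.53 points. Grey lines include the regions over the Spry4 end (59.1 to 84.5) and beside the Fgfr2 start (25.8 to 50.1), whose midpoints lie further away, and span up to 64.6 points, as in the Dusp6 panel where a region goes from 34.6 in Halo-Sox2 to 90.0 in Halo-Sox2a.

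The other genes of the pathway were taken from a list of 58 ligands, receptors, adaptors, kinases, inhibitors and response genes. Together they had 866 regions within 50 kb, of which 359 (41.5%) were held by all 3 lists, 147 (17.0%) by Halo-Sox2 only, 103 (11.9%) by Halo-Sox2a only, 77 (8.89%) by both proteins and 77 (8.89%) by the control only. Over all regions these shares were 32.1%, 24.3%, 12.2%, 8.95% and 10.2% in the same order. Over regions within 50 kb of any protein-coding gene, the closer background, they were 34.8%, 22.7%, 12.6%, 9.32% and 8.98%. A peak that reached to 1 kb or less from a gene end was found at 57 of 58 genes in the Halo-Sox2 library and at all 58 in each of the others, the exception being Fgf1, which encodes a ligand. Over all protein-coding genes the share with such a peak was 65.2% to 66.0%.

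By role, regions without a control peak made up 78 of 173 (45.1%) at the 11 further inhibitors, 60 of 148 (40.5%) at the adaptors, 40 of 106 (37.7%) at the ligands, 70 of 197 (35.5%) at the response genes, 60 of 175 (34.3%) at the cascade and 19 of 68 (27.9%) at the further receptors, against 45.5% of all regions. Over regions within 50 kb of any protein-coding gene the share without a control peak was 44.6%. The adaptor gene Gab1 had the most regions of both proteins, 5 of 29. Next came the inhibitor genes Spred1 with 4 of 21 and Spred2 with 4 of 28. After these, 9 genes tied at 3, among them Fgf4, which encodes the main FGF of embryonic stem cells. Over all regions, 8.95% were of both proteins without the control. The ranking is by count, and Gab1 and Spred2 also held the most regions of any class among the 58 genes. By share, Dusp9 (3 of 12) and Frs3 (3 of 14) stood above Gab1, Spred1 and Spred2. Etv1, the third gene of the ETS subfamily to which Etv4 and Etv5 belong, had the most regions of Halo-Sox2 only, 8 of 15. It was followed by Gab1 with 7 of 29, Fgf10 with 6 of 16, Map2k1 with 6 of 19 and Ier2 with 6 of 27, against 24.3% of all regions.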

How the data were processed

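The deposited data were 3 peak lists of ATAC-seq libraries, 1 per group. The authors' score, a whole number per peak of at least 13, was used only to rank and filter peaks within a list. Per the submitters' processing notes, STAR, SAMtools, MACS2 3.0.0a7, MACS3, deepTools 3.3.0 and the build mm10 were used. Their roles, the peak threshold and any shift of read ends for Tn5 are not given in the sources used here. All peak names of a list bear the name of its own library. Depth is unknown, and the number of called peaks moves with it.

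Here, positions were made 1-based, peaks were shared when they overlapped by at least 1 bp, and overlapping peaks of the 3 lists were merged into regions (Python 3.11.15, pandas 2.3.3). Overlap and merging were tested on simulated data. Wilson 95% intervals (statsmodels 0.14.6) and the limits for a count of 0 (3 counts of the total) cover counting error only. Gene positions, biotypes and promoters came from RefSeq tables of GRCm38.p6. All 7 genes matched by symbol, 4 of them in the promoter table, whereas Fgfr1, Spry4 and Etv4 had no entry there. Strand was taken from that table, and exons, introns and untranslated regions were not assigned.

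The members and gene lists were chosen with earlier results of these data known. At each gene the text names the region nearest to its start site (or to an end, without a strand), the highest region of each list, and every region that lacks a peak in a list and stands at or above percentile 75. Of the pathway genes it names those with the most regions of both proteins and of Halo-Sox2 only. Other regions were chosen after their values were seen. Alternatives covered the window, the overlap, stricter scores, lists of equal size (72638 peaks), the nearest gene, summed scores and autosomes.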

Additional observations from a re-analysis of the deposited data

How the results depend on the processing

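The window, the overlap rule, stricter scores, lists cut to 72638 peaks, the nearest gene and, chosen after seeing the data, leaving out each gene in turn were tried. Of 176 alternative values of the main counts and shares, 150 stayed near the main value (within 1.5 times for a count, within its interval for a share) and 26 moved. The 150 include 6 for each gene left out, which kept most of the same peaks. They also include 6 for autosomes only, which could hardly move because all 7 genes lie on autosomes. At or above percentile 50, 9 values moved and 7 stayed. With an overlap of at least 50% of both peaks, 6 moved and 7 stayed. These verdicts are on single values, and orders between values did turn. Regions of Halo-Sox2 only and Halo-Sox2a only, 22 and 14 as reported, numbered 15 and 15 in lists of equal size and 12 and 13 at or above percentile 50. Peaks unshared between the proteins were equal in number as reported. In lists of equal size they were 25.0% of Halo-Sox2 and 36.7% of Halo-Sox2a peaks. They were 27.7% and 33.3% at or above percentile 25, and 31.0% and 38.3% at or above percentile 50. Shares over the whole lists or all regions at these settings are not given here, so these turns are not read as particular to the 7 genes.

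With a window of 20 kb the control had 41 peaks, 2 regions were of the control only and 1 of Halo-Sox2 and the control. With 100 kb there were 130 Halo-Sox2a and 97 control peaks, and 25 regions of Halo-Sox2a only, 13 of the control only and 19 of Halo-Sox2a and the control. Asking for an overlap of at least 50% of both peaks gave 42.4% of peaks unshared in each direction between the proteins and 28.6% of control peaks without a Halo-Sox2a peak, with 26 regions of Halo-Sox2a only, 12 of the control only and 4 of Halo-Sox2 and the control. A gap of up to 500 bp left 1 region of Halo-Sox2 and the control. At or above percentile 25 there were 3 regions of the control only and 8 of both proteins. At or above percentile 50 there were 42 Halo-Sox2, 47 Halo-Sox2a and 34 control peaks, and 24 regions of all 3 lists, 12 of Halo-Sox2 only, 3 of the control only, 5 of both proteins, 1 of Halo-Sox2 and the control and 5 of Halo-Sox2a and the control. For stricter scores and narrower windows fewer peaks enter by construction, and the cause of the other moves was not tested.

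The share of Halo-Sox2 peaks without a control peak lay between 36.9% and 51.8% over 15 alternatives, and that of Halo-Sox2a peaks between 32.9% and 47.1%. The gap between those shares kept its sign in all 15, from 2.18 to 13.1 points. These include the sums with each gene left out, which kept most of the same peaks, and all used the same libraries. Over the whole lists the gap had the same sign, at 15.9 points, so it is not particular to these genes. The control's share without a Halo-Sox2 peak lay between 20.4% and 35.1%.

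No paired analysis was possible because each group had 1 library, and none was left out. The depth of the libraries is unknown, so lists of different length (88898, 83995 and 72638 peaks) cannot be told apart from libraries of different depth. Protein, line and doxycycline dose changed together. Windows hold few peaks (4 to 20 per gene and list), and neighbouring peaks are not independent.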
